A study of Homo sapiens with 12 samples.

Results

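The genes described here are 242 protein-coding genes of chromosome 22. They were taken from 441 protein-coding genes that the annotation places on the chromosome and that the count table lists. A gene entered when it reached at least 5 CPM (counts scaled to a library total of 1e6) in 3 or more of the 12 libraries, which 264 did. Of those, 22 were set aside by name, among them the APOBEC3 genes, XBP1 and ATF4. All 242 members passed the filter on low counts and were tested, and they stand among 21803 genes tested in the whole series. The chromosome was proposed because its genes were lower in the cells labelled with a deletion than in their controls. That difference between the cells is therefore given below as a description and was not tested. The effect of doxorubicin within each kind of cell was not itself used in the choice and was tested. Its tests share libraries with the difference that was used. The difference of the doxorubicin effects is the difference between the cells in doxorubicin less that in DMSO. The choice therefore bears on how many members rose or fell, and nothing about the chromosome is read from those counts.

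RNA was sequenced from cells labelled HS578T, an established line from a triple-negative breast cancer. Cells labelled Cas9, with an intact short arm of chromosome 17 (17p), and cells labelled 17PKO, in which the genotype label gives a knockout of a single copy of 17p, were cultured for 48 h in vehicle (DMSO) or in doxorubicin, an anthracycline that poisons topoisomerase II and breaks DNA. The Cas9 cells received 170 nM doxorubicin and the 17PKO cells 1 µM. The 4 groups held 3 libraries each: Cas9 in DMSO, 17PKO in DMSO, Cas9 in doxorubicin and 17PKO in doxorubicin. Cell label and dose change together in doxorubicin and cannot be told apart there. The labels do not say whether the 17PKO cells are 1 clone. They also leave unsaid whether replicates were grown separately, and p-values therefore cover only how far these libraries differ within a group, which may be technical. The labels name a loss on chromosome 17 and none on chromosome 22.

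Chromosome 22 is a small acrocentric chromosome whose long arm is dense in genes and rich in G and C. It carries the tumour suppressor genes NF2, which encodes the membrane-cytoskeleton linker merlin, and SMARCB1, a subunit of the SWI/SNF chromatin remodelling complex. It also carries EP300, a histone acetyltransferase, the region deleted in the 22q11.2 deletion syndrome, the cluster of apolipoprotein L genes, which respond to interferon, and many genes of splicing, nuclear transport and mitochondrial function that every cell uses.

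Libraries held 66150539 to 99142099 counts, and 3 counts, used as the floor of detection, correspond to 0.0303 to 0.0454 CPM. The members lay well above it, with means over all libraries from 2.46 to 2458 CPM and a median of 45.1 CPM. All 10 mesenchymal markers examined reached 5 CPM in every group. Their summed level moved with both label and treatment, at 10291 to 10861 CPM in Cas9 and 7083 to 7985 CPM in 17PKO in DMSO and at 8389 to 8623 and 5661 to 5746 CPM in doxorubicin, and its part in the results was not tested. Of 10 epithelial markers 3 reached 5 CPM, with a summed level of 383 to 653 CPM that overlapped between the labels. EPCAM and CDH1 averaged at most 0.322 CPM, and none of 10 blood cell markers reached 5 CPM, with a summed level of 0.353 to 1.03 CPM. Transcripts specific to single chromosomes went against the recorded karyotype of the labelled line in 12 of 12 libraries, and the names used here are only those of the labels. On chromosome 17, where the labels put the deletion, 190 genes on 17p had a median log2 fold change (17PKO over Cas9) of -0.14 in DMSO and -0.10 in doxorubicin, and 495 genes on the long arm -0.23 and -0.25. Replicate 2 of 17PKO in DMSO and replicate 1 of Cas9 in doxorubicin stood apart, with 6.898% and 5.543% of counts from mitochondrial genes against 2.608% to 3.573% in the other libraries. In these libraries GC-rich genes read low, with a rank correlation across genes between transcript GC content and deviation from the mean of all 12 libraries of -0.405 and -0.303. This touches chromosome 22 because its members have a median transcript GC content of 56.4% against 47.8% for the 10684 other protein-coding genes at the same level.

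The sequences just around the starts of 4 members are shown because these genes mark the patterns described below: THOC5 and NF2 lie in a stretch of neighbours most of which were lower in 17PKO cells, OSBP2 lies within that stretch and was higher, and MAFF lies outside it and was higher. They are RefSeq windows of 300 bases on GRCh38.p14, from 250 before the start to 50 after it, written 5′ to 3′ on the strand of the gene, with each GC box in capitals. A GC box is the motif GGGCGG, bound by factors of the Sp1 family, and it was searched on both strands, so it also appears as CCGCCC. The THOC5 window is chr22:29553708-29554007 on the minus strand, NF2 is chr22:29603383-29603682 on the plus strand, OSBP2 is chr22:30764003-30764302 on the plus strand and MAFF is chr22:38201744-38202043 on the plus strand.
THOC5: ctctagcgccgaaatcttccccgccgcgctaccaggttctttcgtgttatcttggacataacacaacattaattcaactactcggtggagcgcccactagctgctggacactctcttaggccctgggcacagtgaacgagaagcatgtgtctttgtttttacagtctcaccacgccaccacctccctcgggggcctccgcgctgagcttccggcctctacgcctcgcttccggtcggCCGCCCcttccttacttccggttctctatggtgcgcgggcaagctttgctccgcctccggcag
NF2: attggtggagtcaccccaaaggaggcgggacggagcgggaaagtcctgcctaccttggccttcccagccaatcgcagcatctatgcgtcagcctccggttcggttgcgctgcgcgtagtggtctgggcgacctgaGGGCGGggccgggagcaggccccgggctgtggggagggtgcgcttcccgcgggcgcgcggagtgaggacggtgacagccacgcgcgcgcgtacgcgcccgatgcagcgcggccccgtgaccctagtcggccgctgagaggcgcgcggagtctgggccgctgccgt
OSBP2: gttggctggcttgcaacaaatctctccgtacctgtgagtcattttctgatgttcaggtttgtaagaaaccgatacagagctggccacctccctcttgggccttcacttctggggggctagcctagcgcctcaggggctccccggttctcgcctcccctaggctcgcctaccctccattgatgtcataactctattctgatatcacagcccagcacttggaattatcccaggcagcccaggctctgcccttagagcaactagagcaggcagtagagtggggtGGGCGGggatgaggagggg
MAFF: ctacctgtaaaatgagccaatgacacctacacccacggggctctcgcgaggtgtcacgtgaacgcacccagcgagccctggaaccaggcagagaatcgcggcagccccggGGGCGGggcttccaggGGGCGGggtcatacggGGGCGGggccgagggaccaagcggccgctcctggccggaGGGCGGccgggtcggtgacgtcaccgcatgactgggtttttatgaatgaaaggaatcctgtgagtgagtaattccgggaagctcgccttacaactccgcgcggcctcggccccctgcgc
Of the 242 members 180 had such a window, 256 windows in all since a gene can have several starts. A GC box was in 75% of them, against 45.0% of all 35116 windows in the table and 67.5% of the 13019 windows of other expressed genes. In the stretch just named 33 of 41 windows held one, or 80.5%. The interferon response element was in 1.95% of member windows, 3.57% of all windows and 2.83% of those of other expressed genes. APOL1, APOL2, APOL3 and APOL6 of the apolipoprotein L cluster, PRODH and PATZ1 had no window, so no share given here covers them. The shares in the same order were 32.0%, 34.6% and 34.9% for CCAAT, 3.12%, 11.5% and 5.85% for TATAAA, and 5.08%, 7.71% and 5.02% for the AP-1 motif TGANTCA. Members that were higher and members that were lower in 17PKO cells thus both carry GC boxes. A match describes the letters only.

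The members were lower in 17PKO cells across the chromosome. In DMSO their median log2 fold change, 17PKO over Cas9, was -0.45, with quartiles of -0.77 and -0.16 and a range from -2.89 to 1.34, against a median of 0.04 over all genes tested. In doxorubicin it was -0.39, with quartiles of -0.77 and -0.03 and a range from -2.30 to 3.72, against 0.02. The sign was negative for 204 of 242 members in DMSO, or 84.3% against 47.4% of all genes tested, and for 186 in doxorubicin, or 76.9% against 49.1%. It was negative in both treatments for 175 members (72.3%, against 34.1% of all genes), positive in both for 27 (against 37.6%) and opposite for 40 (16.5% against 28.3%). Since the chromosome was chosen by this contrast, nothing is read from these shares.

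Each library can be read by itself. In DMSO all 3 17PKO libraries lay below all 3 Cas9 libraries for 167 members (69.0%, against 25.2% of all genes tested) and above them for 12 (4.96% against 24.2%). In doxorubicin they lay below for 126 (52.1% against 22.1%) and above for 39 (16.1% against 35.0%). For 109 members (45.0% against 14.0%) they lay below in both treatments, and for 10 (4.13% against 16.7%) above in both. The mean log2 deviation of the members from the Cas9 DMSO libraries was taken on log2(CPM + 1), here with library totals scaled by the TMM factors of the fit. This deviation was -0.36, -0.67 and -0.36 in the 17PKO DMSO libraries and -0.29, -0.33 and -0.29 in the 17PKO doxorubicin libraries. It was -0.14, 0.12 and 0.00 in the Cas9 doxorubicin libraries. The 17PKO libraries were thus low in both treatments and did not overlap with the Cas9 libraries. The value of -0.67 belongs to replicate 2. There 2609 other protein-coding genes at the same level, with a GC content at or above the members' median, deviated by -0.44. The members less those genes came to -0.23 there against -0.41 and -0.43 in replicates 1 and 3. In doxorubicin the members less those genes came to -0.43, -0.42 and -0.42 in 17PKO and to 0.12, -0.03 and 0.08 in Cas9. All member counts together made up 23272 to 23861 CPM in Cas9 and 15739 to 18920 CPM in 17PKO in DMSO, and 21329 to 23713 and 18574 to 18808 CPM in doxorubicin. In bulk RNA fewer cells expressing a gene and less RNA per cell cannot be told apart.

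**Figure D1:**
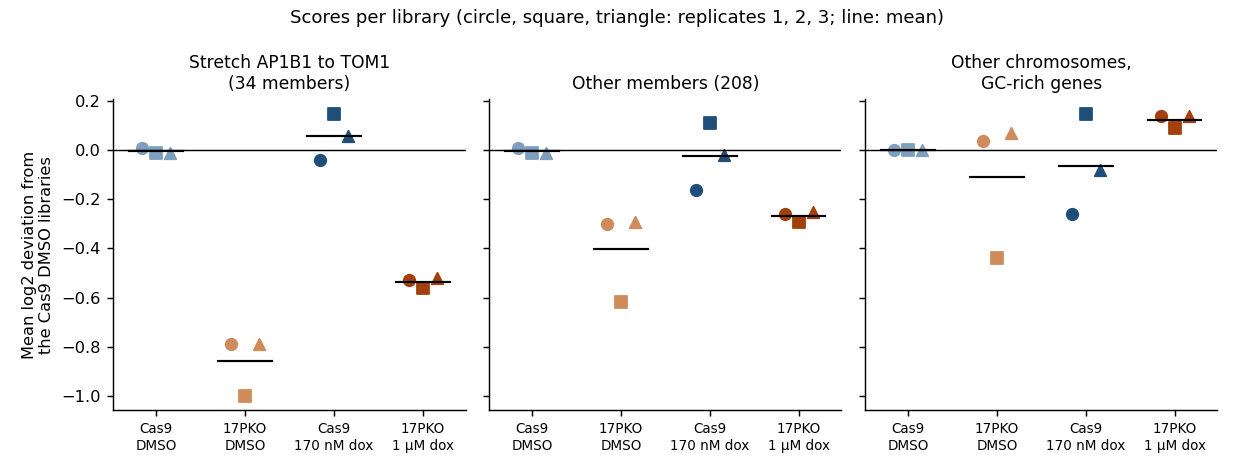
Mean log2 deviation from the Cas9 DMSO libraries (y axis, log2(CPM + 1), library totals scaled by TMM factors) for each of the 12 libraries, for the 34 members of the stretch AP1B1 to TOM1, the other 208 members and GC-rich protein-coding genes that are not members. The third panel is titled other chromosomes, but genes of chromosome 22 set aside by name were not taken out of it. Symbols are replicates and lines are group means. The 17PKO libraries lie at -0.79 to -1.0 in DMSO and -0.52 to -0.56 in doxorubicin in the first panel, and replicate 2 of 17PKO in DMSO is low in all 3 panels.

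Set beside the other chromosomes, with protein-coding genes at the same level and the 22 genes set aside put back, chromosome 22 had the lowest median of 23 in both treatments, -0.46 in DMSO and -0.40 in doxorubicin over 264 genes. Chromosome 17 followed at -0.21 and -0.22, chromosome 8 stood at -0.14 and -0.22, and chromosome 16 at -0.12 and -0.14. Chromosome 19, with a median GC content of 59.1% against 56.3% for chromosome 22, stood at 0.08 in both. Chromosome 21 was the highest, at 0.57 and 0.52. When the trend of each library with GC content was removed, the medians of chromosome 22 were -0.40 and -0.50 and still the lowest of the 23.

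**Figure D2:**
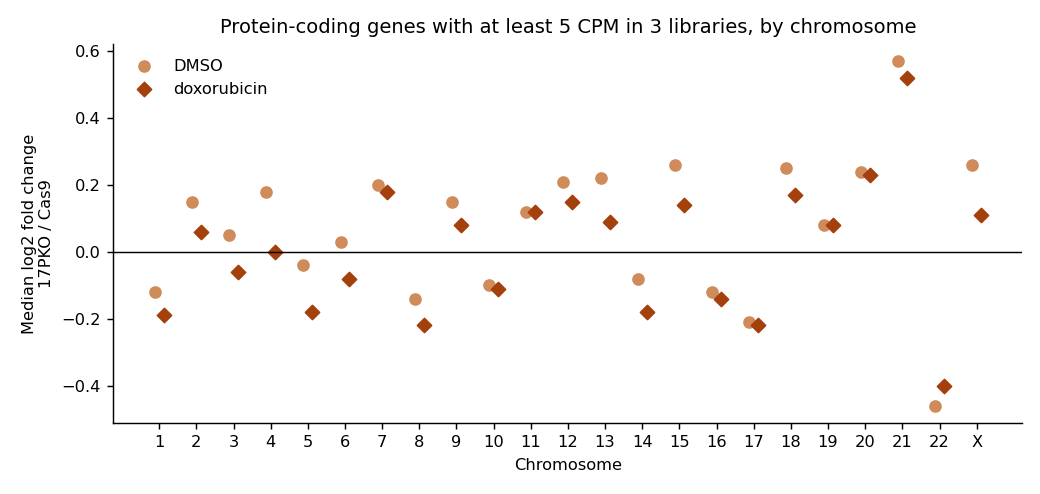
Median log2 fold change, 17PKO over Cas9 (y axis), of protein-coding genes with at least 5 CPM in 3 libraries, by chromosome (x axis), in DMSO (circles) and doxorubicin (diamonds). Chromosome 22 lies lowest, at -0.46 and -0.40, and chromosome 21 highest, at 0.57 and 0.52.

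Along the chromosome every 5 Mb bin had a negative median in both treatments, and the third was the lowest. In bins of 5 Mb from the first member, IL17RA, a receptor subunit for interleukin-17, the median was -0.31 in DMSO and -0.26 in doxorubicin in the bin that begins there (45 members) and -0.23 and -0.25 in the next (19 members). It was -0.89 and -0.69 in the third bin, MN1 to YWHAH (chr22:27748277-31957603, 40 members), where 38 members had a negative sign in DMSO and 32 in doxorubicin. The remaining bins ran from -0.42 to -0.60 in DMSO and from -0.35 to -0.49 in doxorubicin. Position itself hardly ordered the values, with a rank correlation across the 242 members of -0.122 in DMSO and -0.081 in doxorubicin. The ends of the set differed from each other: IL17RA had 45.0, 42.8 and 48.8 CPM in 17PKO against 48.2, 46.8 and 43.9 CPM in Cas9 in DMSO, overlapping, while RABL2B, a small GTPase gene near the telomere, had 13.4, 12.6 and 13.2 CPM against 37.5, 38.5 and 35.0 CPM. RABL2B has a near-identical copy on chromosome 2, so its counts are uncertain.

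The mean of each member's differences in DMSO and doxorubicin was taken as a median over 9 neighbouring members, and this was at or below -0.8 in 26 of 234 windows. They formed 2 separate runs of 13 windows, AP1B1 to TCN2 and LIMK2 to TOM1. The 8 windows between, SLC35E4 to RNF185, were higher, rising to -0.27 on that measure and to 0.01 for doxorubicin alone. The stretch from the first of these windows to the last (chr22:29327680-35347994 on hg38, 6.02 Mb), chosen after its values were seen, holds 34 members. No member starts between FBXO7, 15.39 Mb from the start of IL17RA, and HMGXB4, at 18.172 Mb. Only HMGXB4 and TOM1 follow that gap. The median of the 34 members was -1.02 in DMSO (quartiles -1.19 and -0.67) and -0.89 in doxorubicin (-1.08 and -0.31), against -0.41 and -0.35 for the other 208. The sign was negative for 32 of 34 in DMSO, 28 in doxorubicin and 27 in both. Of all genes tested 47.4%, 49.1% and 34.1% were negative, in the same order. All 17PKO libraries lay below all Cas9 libraries for 31 in DMSO, 25 in doxorubicin and 24 in both. Of all genes tested 25.2%, 22.1% and 14.0% did so. Since the stretch was chosen by the same differences, nothing is read from these counts. With the GC trend removed the medians were -1.01 and -0.99, against -0.34 and -0.46 for the rest. Neighbours just outside were mixed. Before the stretch, CCDC117 stood at -0.22 and 0.03 and ZNRF3 at -0.09 and -0.01, but RHBDD3 at -1.04 and -0.92. After it, RBFOX2 stood at -0.01 and -0.33, but RASD2 at -1.29 and -0.09 and APOL1 at -1.82 and -1.03.

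**Figure D3:**
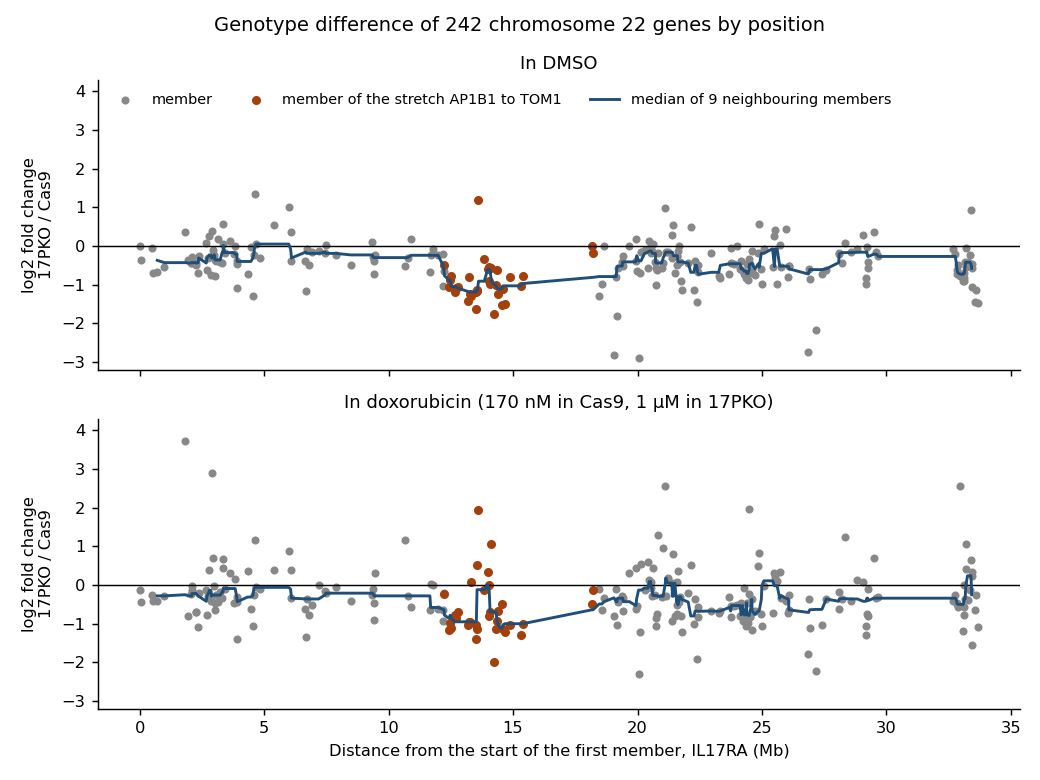
Log2 fold change, 17PKO over Cas9 (y axis), of the 242 members against distance from the start of IL17RA in Mb (x axis), in DMSO (top) and doxorubicin (bottom); the line is the median of 9 neighbours. The line falls furthest at both ends of the stretch AP1B1 to TOM1 (orange, 34 members with medians of -1.02 and -0.89) and rises between them, and points scatter more widely above 0 in doxorubicin.

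The genes of the stretch described here were picked for what they are known to do or for their values. THOC5 (chr22:29505879-29555216) encodes a subunit of the THO complex, which couples transcription to mRNA export. It had 78.9, 82.2 and 81.6 CPM in Cas9 and 37.7, 36.6 and 39.8 CPM in 17PKO in DMSO, and 78.4, 85.0 and 82.3 CPM against 38.9, 39.9 and 38.8 CPM in doxorubicin. The groups did not overlap and the log2 fold changes were -1.06 (SE 0.07) and -1.15 (SE 0.07), ratios of mean CPM of 0.470 and 0.479. NF2 (chr22:29603556-29698598) had 288, 270 and 253 CPM in Cas9 and 172, 138 and 158 CPM in 17PKO in DMSO, and 222, 236 and 255 CPM against 122, 109 and 121 CPM in doxorubicin. No library of NF2 crossed between the groups, and the log2 fold changes were -0.77 (SE 0.09) and -1.10 (SE 0.09). SF3A1, a subunit of the U2 splicing particle, lay in the same range with 276, 282 and 277 CPM against 163, 158 and 149 CPM in DMSO (ratio 0.565) and a ratio of 0.549 in doxorubicin. PES1, which acts in the maturation of the large ribosomal subunit, stood at -1.19 and -1.39. RTCB, the tRNA splicing ligase, stood at -1.03 and -1.28 and YWHAH, a 14-3-3 protein gene, at -0.81 and -1.03. FBXO7, a ubiquitin ligase subunit that acts in mitophagy, stood at -0.78 and -1.0. DEPDC5, a subunit of the GATOR1 complex that restrains mTORC1, stood at -1.51 and -1.22.

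The most reduced gene of the stretch in doxorubicin was PATZ1 (chr22:31325804-31346232), a zinc finger transcription factor gene. It had 53.2, 51.7 and 53.2 CPM in Cas9 and 18.4, 11.3 and 16.4 CPM in 17PKO in DMSO. In doxorubicin it had 37.3, 49.9 and 48.3 CPM against 13.5, 10.7 and 12.1 CPM. Its ratios of mean CPM were 0.292 and 0.268, lower than those of THOC5 and NF2, which lie in the same stretch. Not every gene there was low. OSBP2 (chr22:30693782-30907824), an oxysterol-binding protein gene, had 21.7, 21.2 and 23 CPM in Cas9 and 53.8, 43.8 and 50.4 CPM in 17PKO in DMSO, and 20.2, 21.6 and 23.3 CPM against 86.8, 85.7 and 92.9 CPM in doxorubicin. All its 17PKO libraries lay above all Cas9 libraries, with log2 fold changes of 1.19 (SE 0.09) and 1.95 (SE 0.09). LIMK2, a kinase that inactivates cofilin, and SMTN, a smooth muscle cytoskeletal protein gene, were low in DMSO at -0.58 and -0.60 and high in doxorubicin at 1.07 and 0.33. HMGXB4 and TOM1, at the far edge of the stretch, stood at 0.01 and -0.18 in DMSO.

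**Figure D4:**
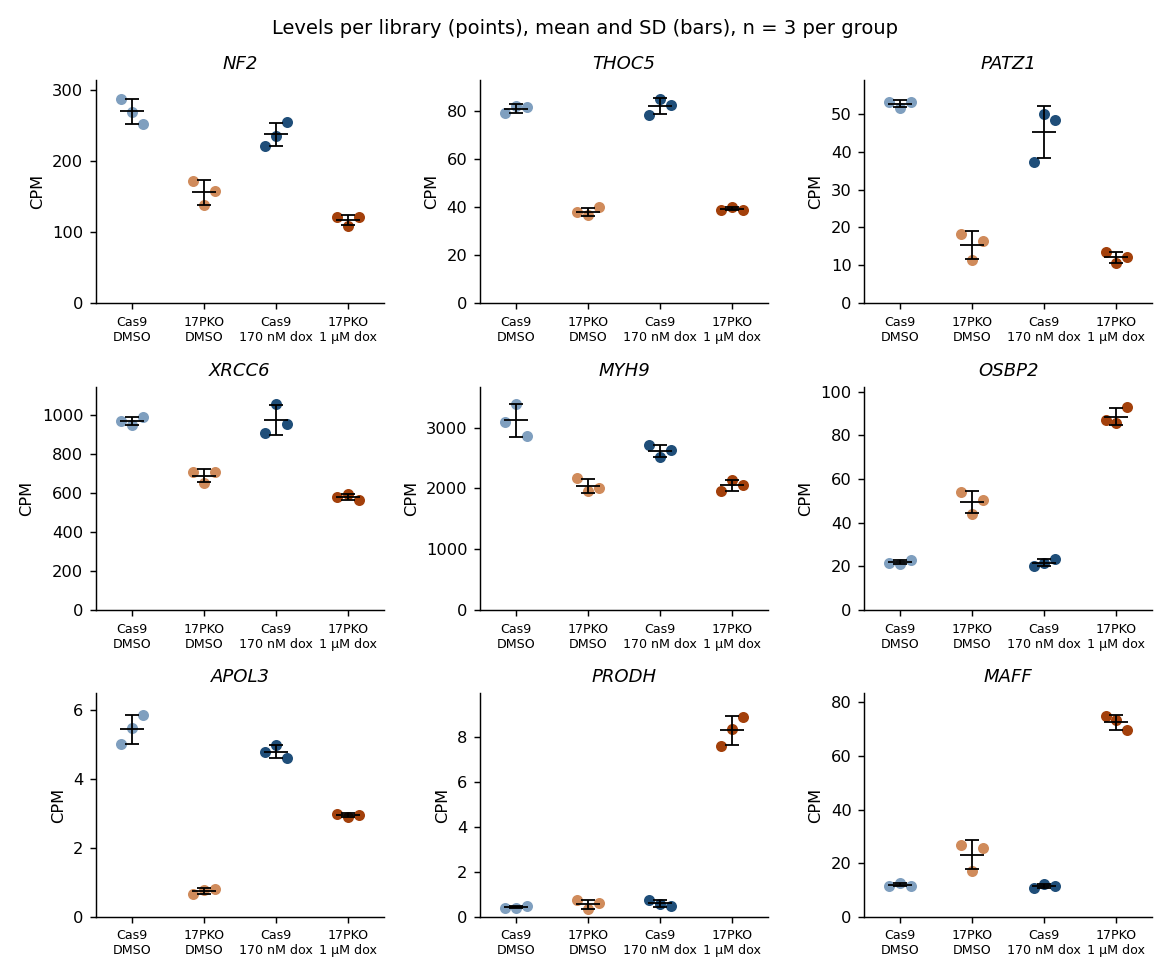
CPM (y axis, from 0) of 9 members in each library (points) with the group mean and SD (bars, n = 3 per group), in the 4 groups along the x axis. NF2, THOC5, PATZ1, XRCC6 and MYH9 are lower in both 17PKO groups, OSBP2 is higher in both, and APOL3, PRODH and MAFF are higher in 17PKO cells with doxorubicin than in 17PKO cells with DMSO.

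Sorted by role, members of 9 lists were mostly lower. A gene can be in several lists, and each list's median is read against the medians of 0.04 and 0.02 over all genes. The genes named for a list are those with the most counts in it, which CPM does not correct for length, and a few others that were picked after their values were seen. Among 25 members of RNA processing and translation the median was -0.41 in DMSO and -0.64 in doxorubicin, and 22 were negative in each. RANBP1, which helps the GTPase Ran drive nuclear transport, had 340, 343 and 362 CPM in Cas9 and 254, 286 and 256 CPM in 17PKO in DMSO, and 333, 389 and 289 CPM against 224, 242 and 219 CPM in doxorubicin. Its groups did not overlap in either treatment. RANGAP1, the GTPase activator of Ran, had 346, 337 and 331 CPM against 298, 170 and 296 CPM in DMSO, where the low value is replicate 2. DDX17, an RNA helicase gene, went against its list with 587, 601 and 579 CPM against 679, 706 and 716 CPM in DMSO, and overlapped in doxorubicin.

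Among 28 members of chromatin and transcription the median was -0.40 in DMSO and -0.42 in doxorubicin, with 21 and 24 negative. CBX6, a Polycomb chromodomain protein gene, had 253, 247 and 239 CPM in Cas9 and 130, 69.1 and 133 CPM in 17PKO in DMSO, and 152, 216 and 220 CPM against 91.4, 82.2 and 92.4 CPM in doxorubicin. EP300 overlapped in DMSO and did not in doxorubicin: it had 204, 222 and 172 CPM against 199, 218 and 169 CPM in DMSO, and 284, 207 and 249 CPM against 186, 179 and 187 CPM in doxorubicin. TCF20, a transcriptional coregulator gene, overlapped in both treatments, with log2 fold changes of -0.07 and -0.02. SMARCB1 stood at -0.08 and -0.36. The tumour suppressor genes NF2 and SMARCB1 of this chromosome thus had unlike values in DMSO.

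Among 24 members of mitochondria and redox the median was -0.48 in DMSO and -0.56 in doxorubicin, with 20 and 19 negative. TOMM22, a receptor of the outer membrane import complex, had 179, 170 and 185 CPM in Cas9 and 124 ± 20.3 CPM (mean ± SD, n = 3) in 17PKO in DMSO. It was lower in every 17PKO library in doxorubicin too, with a log2 fold change of -0.76. CYB5R3, a cytochrome b5 reductase gene, was higher, with 231, 231 and 244 CPM against 315, 292 and 315 CPM in DMSO and a log2 fold change of 0.21 in doxorubicin. Among 13 members of cytosolic and lysosomal metabolism the median was -0.74 and -0.50, and all 13 were negative in DMSO and 10 in doxorubicin. PITPNB, a phosphatidylinositol transfer protein gene, stood at -0.30 and -0.28.

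Among 31 members of the 22q11.2 deletion region the median was -0.36 in DMSO and -0.22 in doxorubicin, with 22 and 23 negative. CRKL, an adaptor protein gene of that region, had 184, 180 and 178 CPM in Cas9 and 187, 167 and 180 CPM in 17PKO in DMSO, which overlap. PI4KA, a phosphatidylinositol kinase gene whose copies elsewhere on the chromosome make its counts uncertain, stood at 0.12 in DMSO and 0.32 in doxorubicin. Among 25 members of signalling and growth control the median was -0.31 and -0.30, with 19 and 17 negative. GNAZ, a G protein subunit gene, was higher at 1.01 and 0.87.

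Among 20 members of cytoskeleton and adhesion the median was -0.54 in DMSO and -0.16 in doxorubicin, with 16 and 13 negative. MYH9, the heavy chain of non-muscle myosin IIA, had 3098, 3395 and 2861 CPM in Cas9 and 2176, 1951 and 2012 CPM in 17PKO in DMSO. In doxorubicin it had 2709, 2510 and 2630 CPM against 1963, 2140 and 2055 CPM, and no library crossed. PLXNB2, a semaphorin receptor, had 409, 422 and 406 CPM against 324, 199 and 319 CPM in DMSO and, in the opposite direction, 323, 408 and 385 CPM against 523, 510 and 532 CPM in doxorubicin. Among 23 members of protein folding, trafficking and turnover the median was -0.31 and -0.47, with 22 and 20 negative. LGALS1, the galectin-1 gene, overlapped in both treatments and ranged from 277 to 588 CPM within the 17PKO DMSO libraries, with replicate 2 the lowest. ST13, an Hsp70-interacting protein gene, and UBE2L3, a ubiquitin-conjugating enzyme gene, overlapped in DMSO at -0.06 and -0.03 and were lower in doxorubicin at -0.53 and -0.61.

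Among 15 members of DNA repair and cell cycle the median was -0.39 in DMSO and -0.36 in doxorubicin, with 12 and 10 negative. XRCC6 (chr22:41621119-41664048), the Ku70 subunit that binds broken DNA ends in end joining, had 969, 945 and 988 CPM in Cas9 and 704, 652 and 708 CPM in 17PKO in DMSO, and 906, 1054 and 954 CPM against 580, 594 and 561 CPM in doxorubicin. The groups did not overlap and the log2 fold changes were -0.46 (SE 0.07) and -0.83 (SE 0.07). NUP50, a nucleoporin gene, stood at -0.17 and -0.63.

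The members with the lowest mean of both differences were IL2RB, PNPLA3, SHISAL1, PATZ1, APOL3 and MGAT3. IL2RB, a subunit of the interleukin-2 and interleukin-15 receptors, had 7.15, 6.35 and 6.12 CPM in Cas9 and 1.07, 0.800 and 0.732 CPM in 17PKO in DMSO, and log2 fold changes of -2.89 (SE 0.17) and -2.30 (SE 0.16). PNPLA3, a lipid droplet hydrolase gene, had 9.04, 9.95 and 8.79 CPM against 1.51, 1.22 and 1.33 CPM and log2 fold changes of -2.75 and -1.78. SHISAL1, a gene of the shisa-like family, had 60.2, 57.9 and 58.9 CPM against 13.5, 11.7 and 13.2 CPM and log2 fold changes of -2.18 and -2.22. MGAT3, which adds the bisecting N-acetylglucosamine to N-glycans, stood at -1.45 and -1.90. None of these but PATZ1 lies in the stretch from AP1B1 to TOM1. The highest were PRODH, MAFF, ARVCF and OSBP2. APOL3 and MGAT3 reached the level for entry only through the Cas9 DMSO libraries, as 6 members did, so the choice of members bears on their values. IL2RB and PNPLA3 were under 5 CPM in all their 17PKO DMSO libraries, so that choice bears on their values too. PRODH, MAFF and ARVCF were furthest apart in doxorubicin, where they stood at 3.72, 2.57 and 2.89 against 0.35, 0.98 and 0.38 in DMSO.

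On either side of the level that admitted a gene stand the following values. Just inside, at a third-highest CPM of 5.01 to 5.30, APOL3 stood at -2.82 and -0.79, CHCHD10, a mitochondrial intermembrane protein gene, at -1.16 and -1.34 and CSDC2, an RNA-binding protein gene, at -0.33 and 1.96. Just outside, at 4.68 to 4.74 CPM, SULT4A1 stood at -0.89 and -0.35, SLC2A11 at -0.77 and -0.70 and LRP5L at -0.53 and 0.55. The 22 genes set aside by name had medians of -0.59 and -0.44. Of the rest of the chromosome, 187 genes that are not protein-coding had medians of -0.33 and -0.19. The 84 protein-coding genes below the level had a median of -0.52 in DMSO, with 62 negative, and were not low in doxorubicin, with a median of 0.16 and 35 negative.

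Doxorubicin at 170 nM changed no member in Cas9 cells at an adjusted p under 0.05 in the edgeR fit, where 0.0275% of all genes tested rose and 0.0321% fell. At an unadjusted p under 0.05 there were 27 members, and DESeq2 called 5. The median log2 fold change, doxorubicin over DMSO, was 0.03 with a range from -0.65 to 0.73, and the sign was negative for 111 members (45.9% against 48.8% of all genes tested). All 3 treated libraries lay below all 3 DMSO libraries for 29 of 242 members (against 12.8%) and above them for 17 (7.02% against 5.87%), shares close to those of all genes. SHISAL1 came nearest, with 35.4, 37.5 and 42.5 CPM in doxorubicin against 60.2, 57.9 and 58.9 CPM in DMSO, a log2 fold change of -0.54 (SE 0.09) and an adjusted p of 0.0525 in edgeR. Across the 242 members the fold change in Cas9 cells had a rank correlation of -0.435 with transcript GC content, and of -0.324 across other protein-coding genes. These points share libraries. The rank correlation of GC content with deviation from the mean of all libraries was -0.303, 0.255 and -0.124 in the Cas9 doxorubicin libraries. GC-rich genes thus read low in replicates 1 and 3 and high in replicate 2. The part of these trends in the small changes was not tested.

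Doxorubicin at 1 µM changed 77 members in 17PKO cells: 56 rose (23.1%) and 21 fell (8.68%), where 17.5% of all genes tested rose and 13.1% fell. The other 165 did not pass. The median was 0.05, against -0.02 over all genes, and the sign was negative for 109 members (45.0% against 51.4%). All treated libraries lay above all DMSO libraries for 80 members (33.1% against 26.8% of all genes tested) and below them for 20 (8.26% against 18.6%). The 17PKO DMSO libraries also served the choice of the chromosome, so that choice bears on this split. The split further depends on the library that stood apart. Without replicate 2 of 17PKO in DMSO 44 rose and 48 fell (18.2% and 19.8%, where 16.8% and 13.9% of all genes tested did). With the GC trend removed 55 rose and 52 fell (22.7% and 21.5%, where 19.4% and 19.1% did). Of the 56 members that rose 43 kept their call in both of these settings, and of the 21 that fell 17 did. Of the 22 calls on genes taken by the naming rule 18 held in all 22 alternatives, and the 4 that did not are pointed out below. Of the other genes named for a call in 17PKO cells, KLHL22 lost it without that replicate, and RBFOX2 lost it without that replicate and with the GC trend removed. The stretch from AP1B1 to TOM1 was chosen on values that include the 17PKO DMSO libraries, so its change with doxorubicin is given only as library means: they deviated from Cas9 in DMSO by -0.79, -1.0 and -0.79 in 17PKO in DMSO and by -0.53, -0.56 and -0.52 in doxorubicin. With the GC trend removed, its genotype medians were -1.01 and -0.99 and the median difference of the doxorubicin effects was 0.03. Members of the stretch named below for a change are LIMK2, SMTN, SLC35E4, SEC14L2, PISD, INPP5J, OSBP2, NF2 and PES1. The choice of the stretch bears on their values too.

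The largest rise was that of PRODH (chr22:18912777-18936553), the mitochondrial proline dehydrogenase and a known target of p53. It had 0.726, 0.330 and 0.601 CPM in 17PKO cells in DMSO and 7.58, 8.34 and 8.89 CPM in doxorubicin, and 0.405, 0.397 and 0.496 CPM against 0.756, 0.561 and 0.464 CPM in Cas9 cells. Only the treated 17PKO libraries were high, and without them PRODH would not have reached the level for entry. The same holds for 4 members in all, PRODH, MLC1, CSDC2 and RAC2, all counted among the 56. The choice of members therefore bears on their rise, and the sizes and p-values of these genes support nothing about the chromosome. PRODH had a log2 fold change of 3.88 (SE 0.25) and an adjusted p of 6.67e-08 in edgeR. A pseudogene copy and genes on the opposite strand overlap or resemble it, so its counts are uncertain. MLC1, a membrane protein gene of astrocytes, had 1.48, 0.508 and 0.732 CPM and then 7.01, 8.64 and 6.39 CPM, a log2 fold change of 3.0 (SE 0.29, adjusted p 3.40e-06 in edgeR). ARVCF, a catenin of the p120 family, had 10.5, 3.96 and 11.0 CPM and then 44.2, 39.3 and 43.3 CPM, a log2 fold change of 2.31 (SE 0.27, adjusted p 1.82e-05 in edgeR). In Cas9 cells neither passed, and ARVCF overlapped: MLC1 had 1.71, 1.5 and 1.46 CPM and then 0.939, 1.21 and 1.40 CPM, and ARVCF had 6.76, 6.32 and 6.46 CPM and then 3.98, 6.61 and 5.6 CPM.

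**Figure D5:**
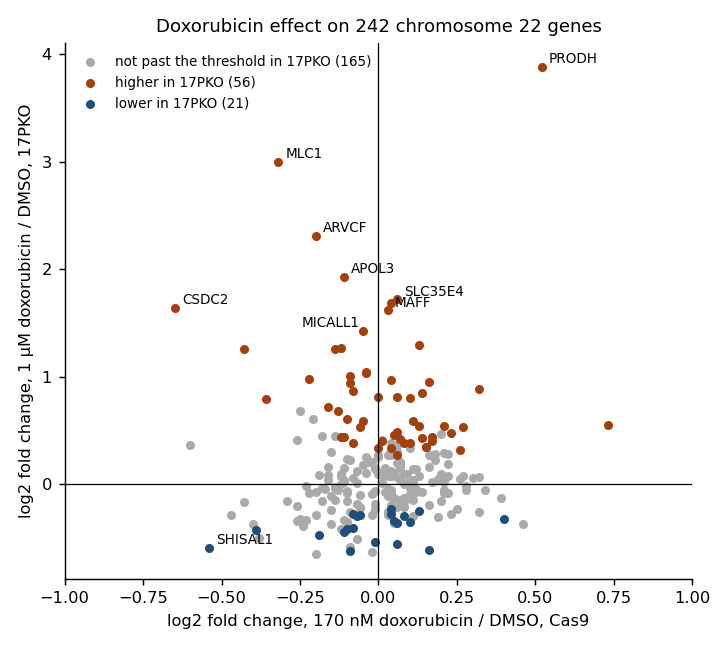
Log2 fold change, doxorubicin over DMSO, of the 242 members in 17PKO cells at 1 µM (y axis) against that in Cas9 cells at 170 nM (x axis), coloured by the edgeR call in 17PKO cells (56 higher, 21 lower, 165 not past the threshold). PRODH, MLC1, ARVCF and APOL3 lie highest, at 3.88, 3.0, 2.31 and 1.93, and no member passed in Cas9 cells.

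APOL3, of the interferon-responsive apolipoprotein L cluster, had 0.650, 0.787 and 0.810 CPM in 17PKO cells in DMSO and 2.99, 2.88 and 2.96 CPM in doxorubicin, against 5.01, 5.47 and 5.84 CPM and 4.78, 4.99 and 4.61 CPM in Cas9 cells. It rose by a log2 fold change of 1.93 (SE 0.15, adjusted p 3.58e-07 in edgeR) and stayed below Cas9. Its neighbours rose too: APOL1 rose by 0.95 from 16.2, 12.5 and 15.3 CPM to 28.6, 30.4 and 27.7 CPM, APOL2 by 0.80 and APOL6 by 0.54. MAFF (chr22:38200767-38216511), a small Maf transcription factor gene induced by stress, had 26.9, 17.0 and 25.6 CPM and then 74.9, 73.4 and 69.5 CPM, a log2 fold change of 1.62 (SE 0.12, adjusted p 3.01e-07 in edgeR). In Cas9 cells it had 11.6, 12.5 and 11.6 CPM and then 10.8, 12.3 and 11.5 CPM, which overlap. MAFF was therefore already higher in 17PKO cells in DMSO and further apart in doxorubicin.

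By role, the counts of each list stand against 17.5% of all genes tested that rose and 13.1% that fell, 16.8% and 13.9% without replicate 2 of 17PKO in DMSO, and 19.4% and 19.1% with the GC trend removed. No list was tested against other genes or another list. Of 20 members of cytoskeleton and adhesion 9 rose (45%) and none fell, 8 rose and none fell without the replicate, and 8 rose and 1 fell with the GC trend removed. LIMK2 and SMTN lie in the stretch AP1B1 to TOM1, so its choice bears on their rise and on this count. LIMK2 rose from 15.1, 11.8 and 16.3 CPM to 47.4, 48.3 and 47.1 CPM (log2 fold change 1.69, SE 0.10, adjusted p 4.00e-08 in edgeR). MICALL1, an endosomal recycling protein gene, rose from 120, 67.3 and 112 CPM to 282, 261 and 276 CPM, a log2 fold change of 1.43, PLXNB2 by 0.87 and SMTN by 0.97. Of 31 members of the 22q11.2 deletion region 6 rose and 1 fell, P2RX6, at -0.41. The 19.4% that rose is near the share of all genes, and the count turned on replicate 2 of 17PKO in DMSO, without which 4 rose and 5 fell, and with the GC trend removed it was 6 and 9. Besides PRODH and ARVCF the risers were TANGO2 at 0.81, KLHL22 at 0.59, PI4KA at 0.35 and UFD1 at 0.32. PRODH is a member only through its treated 17PKO libraries, so the choice of members bears on the count of risers. PI4KA lost its call without replicate 2 of 17PKO in DMSO and without replicate 3 of 17PKO in doxorubicin. Of 25 members of signalling and growth control 6 rose (24%), among them MAPK11, the kinase p38 beta, at 1.01, and NF2 fell by 0.44 on the log2 scale. The 6 risers of that list include RAC2, a member only through its treated 17PKO libraries. That list too had 4 rising and 5 falling without the replicate, and 6 and 7 with the GC trend removed. Of 13 members of cytosolic and lysosomal metabolism 3 rose and none fell: PLA2G6, a phospholipase gene, at 1.26, A4GALT, the globotriaosylceramide synthase, at 1.04 and INPP5J, an inositol phosphatase gene, at 0.89. Without the replicate 3 rose and 2 fell in that list.

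In RNA processing and translation 1 of 25 members rose (4%) and 6 fell (24%), 1 and 8 without replicate 2 of 17PKO in DMSO and 1 and 9 with the GC trend removed. SNU13, a protein of the U4 snRNP and of box C/D snoRNPs, fell from 92.8, 75.1 and 95.7 CPM to 62.8, 54.8 and 58.2 CPM, a log2 fold change of -0.62 (SE 0.12, adjusted p 0.00116 in edgeR). The others were EWSR1 at -0.36, NUP50 at -0.35, PES1 and RBFOX2 at -0.27 and TRMU at -0.25, and GTPBP1 rose by 0.59. NUP50 lost its call in 5 of 22 alternatives, with adjusted p-values up to 0.0780 in edgeR. In DNA repair and cell cycle 2 of 15 rose and 3 fell, and 4 and 6 did with the GC trend removed. XRCC6 fell by 0.29 on the log2 scale (adjusted p 0.00939 in edgeR), a call that was lost in 1 of 22 alternatives, and GTSE1, which acts in the G2 phase and restrains p53, fell by 0.32 from 147, 127 and 154 CPM to 114, 116 and 121 CPM. RIBC2, a ciliary microtubule protein gene, rose by 1.30 and TUBGCP6, of the gamma-tubulin ring complex, by 0.68.

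The remaining lists held few calls, and more of them were falls without replicate 2 of 17PKO in DMSO: 2 rose and 8 fell in chromatin and transcription, 4 and 6 in mitochondria and redox, and 3 and 2 in protein folding, trafficking and turnover. In chromatin and transcription 3 of 28 rose, MAFF, the transcriptional repressor gene HIC2 at 1.05 and KLHL22, a ubiquitin ligase adaptor gene. In that list 2 fell, the zinc finger gene ZNF70 at -0.29 and TTC28, a tetratricopeptide repeat protein gene, at -0.61, from 51.5, 45.6 and 44.3 CPM to 29.8, 31.0 and 33.9 CPM. The name of the list describes neither KLHL22 nor TTC28, so these are counts of the list as drawn up. In mitochondria and redox 4 of 24 rose, among them PRODH and PISD, the phosphatidylserine decarboxylase, at 0.94, and 2 fell. That count of risers includes PRODH, a member only through its treated 17PKO libraries. In protein folding, trafficking and turnover 3 of 23 rose, among them SEC14L2, a lipid-binding protein gene, at 1.27, and KDELR3, a receptor that returns proteins to the endoplasmic reticulum, fell from 76.4, 81.5 and 78.5 CPM to 54.2, 54.1 and 57.2 CPM (log2 fold change -0.55). SHISAL1 fell by 0.59 and C1QTNF6, a secreted C1q-like protein gene, by 0.53 on the log2 scale. SLC35E4, a solute carrier gene, rose by 1.72 and CSDC2 by 1.64. IL2RB rose by 0.53 (adjusted p 0.0277 in edgeR), lost in 9 of 22 alternatives. RABL2B rose by 0.40.

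The difference of the doxorubicin effects, 17PKO less Cas9, passed the threshold in edgeR for 40 members, higher for 30 (12.4%, against 10.3% of all genes tested) and lower for 10 (4.13% against 6.74%), with a median of 0.05 against -0.03 and a negative sign for 105 members (43.4% against 51.9%). Here too dose and cell label change together. This value is the genotype difference in doxorubicin less that in DMSO. Both were used to choose the chromosome, so the choice bears on these counts. With the GC trend removed the split was 35 higher and 47 lower, and without the libraries of high mitochondrial share 31 higher and 41 lower, where 25.2% and 20.9% of all genes tested passed in either direction. The highest differences were those of PRODH at 3.37, MLC1 at 3.32, ARVCF at 2.51, CSDC2 at 2.29 and APOL3 at 2.04. PRODH, MLC1 and CSDC2 entered only through their treated 17PKO libraries, and APOL3 only through its Cas9 DMSO libraries, so the choice of members bears on their place. The lowest were TTLL1, a tubulin glutamylase subunit, at -0.83, TTC28 at -0.77, GTSE1 at -0.72, KDELR3 at -0.61 and SNU13 at -0.53. TTLL1 and SNU13 lost their call in 9 and 11 of 21 alternatives. GTSE1 had 144, 151 and 146 CPM in Cas9 in DMSO and 171, 194 and 188 CPM in doxorubicin, so its Cas9 libraries lay higher with doxorubicin (log2 fold change 0.40, adjusted p 0.0629 in edgeR) while its 17PKO libraries lay lower.

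Some of these counts cannot be assigned with certainty. Of the 242 members 130 overlap a gene on the opposite strand and 86 one on the same strand, 162 in all, and no source used here gives the strand setting of the counting. PRODH, ARVCF, MAFF, SLC35E4, CSDC2, SNU13, KDELR3, TTC28, PATZ1 and XRCC6 are among those with an opposite-strand partner. NF2, THOC5 and OSBP2 overlap only genes on their own strand.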

How the data were processed

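The authors deposited unnormalized read counts for each gene, in 1 table with a column for each of 12 libraries. The submitters' processing notes name STAR 2.7.9a, featureCounts from Subread 2.0.1 and the hg38 build. For the annotation release and the strandedness of counting, nothing is given in the sources used here. Per the labels' protocols, total RNA was made into libraries with a KAPA RNA HyperPrep kit and sequenced in pairs. Positions and GC content came from GENCODE 29 (hg38), which placed 58429 of 60660 gene identifiers, and promoter windows from RefSeq on GRCh38.p14.

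The members, lists, tests and alternatives were chosen with earlier results of these data known. After filterByExpr and TMM scaling, the 4 groups were fitted together with edgeR 4.0.16 in R 4.3.3 (quasi-likelihood test, Benjamini-Hochberg over 21803 genes, threshold 0.05). CPM is counts per 1e6 of the library total, and for the mean log2 deviations that total was multiplied by its TMM factor. The standard error (SE) was taken as the size of the log2 fold change over the square root of F. Fits were tested on simulated data. Alternatives were other scalings and filters, DESeq2 1.42.0, a fit of only the groups compared, a replicate block, loess offsets on GC content (span 0.5), libraries left out, other level thresholds for members and the genes set aside put back. Members outside the stretch of low members, and counts by list without single libraries or with GC offsets, were taken as alternatives after seeing the data.

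Genes were named by rule: from each list the 3 members with the most counts, the 6 lowest and 4 highest members by mean genotype difference, the 5 highest and 5 lowest past the threshold for doxorubicin in 17PKO cells and for the difference of effects, the 3 on each side of the level threshold and both ends of the set. Others were chosen after their values were seen. Some genes this rule takes are not reported here.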

Additional observations from a re-analysis of the deposited data

Results flagged for a closer look

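For 18 named members the doxorubicin effect in 17PKO cells differed from that in Cas9 cells by the edgeR test of the difference itself, and each is given as a log2 difference, 17PKO less Cas9. The dose was 1 µM in 17PKO and 170 nM in Cas9, so cell label and dose cannot be told apart.

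The difference was positive for 11 of them. PRODH differed by 3.37 (SE 0.36, adjusted p 2.05e-05 in edgeR), MLC1 by 3.32 (SE 0.40) and ARVCF by 2.51 (SE 0.37). PRODH, MLC1 and CSDC2 are members only through their treated 17PKO libraries and APOL3 only through its Cas9 DMSO libraries. The choice of members therefore bears on their differences. CSDC2 differed by 2.29, APOL3 by 2.04, SLC35E4 by 1.65 and MAFF by 1.59. MICALL1 differed by 1.48 and PLXNB2 by 0.95, and both are genes of cell shape and membrane traffic. OSBP2 differed by 0.75. SLC35E4 and OSBP2 lie in the stretch AP1B1 to TOM1, so its choice bears on their differences. PNPLA3 differed by 0.96, and neither of its effects passed by itself: it had a log2 fold change of -0.60 in Cas9 cells and 0.37 in 17PKO cells.

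The difference was negative for 7. TTLL1 differed by -0.83, TTC28 by -0.77, GTSE1 by -0.72, KDELR3 by -0.61, SNU13 by -0.53, C1QTNF6 by -0.52 and XRCC6 by -0.37. Of these XRCC6 lost its call in 9 of 21 alternatives, SNU13 in 11, C1QTNF6 in 15 and TTLL1 in 9, so that TTC28, GTSE1 and KDELR3 were the negative differences that held in all 21. All 11 positive differences held in all 21. The alternatives reuse these libraries, and some of the genes were named for the size of their difference, so this adds no separate support.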

How the results depend on the processing

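The members' median genotype difference minus the other genes' median was -0.50 in DMSO and -0.41 in doxorubicin. It kept its sign in every alternative. In DMSO it moved to -0.38 without the 2 libraries with the highest mitochondrial share and ran from -0.57 to -0.37 when each library was left out in turn, with -0.37 without replicate 2 of 17PKO in DMSO. In doxorubicin that range was -0.49 to -0.37. With the genes outside the stretch AP1B1 to TOM1 alone, an alternative added after seeing the data, the values were -0.46 and -0.37.

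Members called for doxorubicin in Cas9 cells numbered 0, and 1 with library totals, 2 with no filter, 3 with a filter of 1 CPM, 5 with DESeq2, 5 with GC offsets, 3 with GC offsets and the replicate block, 3 without the libraries of high mitochondrial share, and 0 to 4 with each library left out (4 without replicate 2 of 17PKO in DMSO). Shares of all genes tested were 0.0596%, 0.22%, 0.431%, 0.437%, 0.69%, 1.92%, 0.833% and 0.867% in the same order, and 0.97% without that replicate. For doxorubicin in 17PKO cells the 77 calls became 107 with GC offsets (55 higher, 52 lower), 106 with the block as well (55 and 51), 112 without the libraries of high mitochondrial share (53 and 59) and 50 to 92 with each library left out (50 without replicate 3 of 17PKO in doxorubicin). Of all genes tested 30.7% passed as reported, then 38.4%, 36.6% and 35.2% in the same order, and 22.9% without that replicate. The general level of calling thus moved as well. For the difference of effects the 40 calls became 82 with GC offsets (35 and 47), 72 with the block as well (33 and 39), 72 without those libraries (31 and 41) and 30 to 46 with each library left out. With library totals as the scaling the calls numbered 42 (37 and 5). For this difference 17.0% of all genes tested passed as reported and 25.2% with GC offsets. The share was 22.8% with the block as well, 20.9% without the libraries of high mitochondrial share and 16.3% with library totals.

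With the replicate number as a block the counts were 0, 62 and 31, where 0.0%, 27.0% and 13.4% of all genes tested passed, and the medians -0.50 and -0.41. Libraries of the same number did not deviate together, with correlations of -0.0924 to 0.0575, so they were not treated as pairs. With 3 libraries in a group, whether same-numbered libraries were handled together cannot be told from this. When a library is left out, its group is assumed to vary like the others.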
